A study of Mus musculus with 9 samples.

Results

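A set of 10 genes that report on and restrain signalling from fibroblast growth factor (FGF) receptors were followed across ES cells and 2 kinds of day 5 culture. They were the ETS-family transcription factor genes Etv4 and Etv5, the Sprouty genes Spry1, Spry2 and Spry4, the Sprouty-related genes Spred1 and Spred2, the phosphatase genes Dusp4 and Dusp6, and Il17rd, which encodes the membrane protein Sef. They were chosen by name and function, with earlier results of these data known. Every probe set carrying 1 of these symbols was taken, which gave 29 of the 45101 probe sets on the array and 10 of 18193 genes.

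The comparison covers 3 groups of 3 Affymetrix mouse arrays, all from Ainv15 mouse embryonic stem (ES) cells that carry V5-tagged Cdx2 under doxycycline control. In the first group, called Cdx2 and FGF cultures here, embryoid bodies received 1 µM retinoic acid and 0.5 µM hedgehog agonist (SAG) from day 2, doxycycline at 2 µg/ml from day 3, which the growth protocol gives as 6 to 8 hours, plus 100 ng/ml of basic FGF, and were collected on day 5. In the second, called motor neuron cultures, the labels list retinoic acid and hedgehog agonist, with neither doxycycline nor FGF, also on day 5. The third was untreated ES cells at day 0, kept with LIF over fibroblast feeders arrested by mitomycin C. Every group carries the construct. Since doxycycline, with the Cdx2 it induces, and FGF came as 1 treatment, what each contributed cannot be told apart. The growth protocol also mentions a wash and, alongside FGF, less concentrated retinoic acid and SAG, without saying which cultures this covered.

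When an FGF binds its receptor, the signal passes through Ras, Raf and MEK to the kinase ERK, which enters the nucleus and alters transcription. ETS factors such as Etv4 and Etv5 are classic targets of this pathway, and so are genes whose proteins turn it down: Sprouty and Spred proteins act between the receptor and Raf, Sef at the membrane or on the kinases, and the dual-specificity phosphatases Dusp4 and Dusp6 remove phosphate from ERK itself. Transcripts of these genes are widely used as a read-out of FGF and ERK activity, in mouse ES cells, whose own Fgf4 drives the pathway, and in the caudal end of the embryo, where FGF keeps spinal cord progenitors undifferentiated.

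Levels are log2 expression values per probe set as deposited, in which 1 unit is a doubling and 2.17 is the floor of the table. Each gene stands on its probe set of highest mean level over all 9 arrays. Differences are the first-named group minus the second, from a limma fit to all 9 arrays and 10911 tested genes, and calls needed an adjusted p under 0.05 together with an absolute log2 difference of at least 1. Where arrays of the dimmer group lie under 4, a fold is a lower bound computed with values under 4 raised to 4. In bulk cultures such as these, fewer cells of a type and less RNA per cell cannot be told apart. Nothing in the labels states that the 3 arrays of a group came from separate cultures, so p-values measure only how far arrays scatter, and that scatter may be technical.

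Promoters of 3 genes are shown first, from the 7 that were called lower in motor neuron cultures than in both other groups. Spry2 and Spred1, also among the 7, had windows that are not printed here. RefSeq promoter windows (GRCm38.p6; 250 bases before to 50 after a start, written 5′ to 3′ on the gene's strand) were at hand for 7 of the 10 genes, as 8 windows. Capitals mark GGAA, the core of ETS sites, or TTTATG, a Cdx site, on either strand. The windows below belong to Etv5 (2 starts, minus strand of chromosome 16), Dusp6 (plus strand of chromosome 10) and Spry1 (plus strand of chromosome 3).
Etv5 chr16:22439521-22439820: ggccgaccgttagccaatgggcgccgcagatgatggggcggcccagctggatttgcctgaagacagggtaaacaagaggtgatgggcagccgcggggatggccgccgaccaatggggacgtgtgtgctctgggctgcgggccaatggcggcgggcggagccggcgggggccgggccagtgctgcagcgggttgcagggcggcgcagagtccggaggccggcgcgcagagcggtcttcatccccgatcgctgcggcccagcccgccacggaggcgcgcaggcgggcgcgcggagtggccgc
Etv5 chr16:22438319-22438618: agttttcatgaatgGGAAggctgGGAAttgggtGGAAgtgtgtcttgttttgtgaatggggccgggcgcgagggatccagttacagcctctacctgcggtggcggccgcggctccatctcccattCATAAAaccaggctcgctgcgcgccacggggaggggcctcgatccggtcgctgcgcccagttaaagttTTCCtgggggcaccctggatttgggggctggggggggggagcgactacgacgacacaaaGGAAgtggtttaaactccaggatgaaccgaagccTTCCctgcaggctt
Dusp6 chr10:99262981-99263280: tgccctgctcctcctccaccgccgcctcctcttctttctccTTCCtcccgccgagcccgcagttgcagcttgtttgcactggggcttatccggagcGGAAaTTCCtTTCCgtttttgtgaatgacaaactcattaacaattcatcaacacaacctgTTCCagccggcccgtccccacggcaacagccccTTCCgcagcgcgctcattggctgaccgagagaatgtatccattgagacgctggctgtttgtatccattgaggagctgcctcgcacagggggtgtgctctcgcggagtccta
Spry1 chr3:37639697-37639996: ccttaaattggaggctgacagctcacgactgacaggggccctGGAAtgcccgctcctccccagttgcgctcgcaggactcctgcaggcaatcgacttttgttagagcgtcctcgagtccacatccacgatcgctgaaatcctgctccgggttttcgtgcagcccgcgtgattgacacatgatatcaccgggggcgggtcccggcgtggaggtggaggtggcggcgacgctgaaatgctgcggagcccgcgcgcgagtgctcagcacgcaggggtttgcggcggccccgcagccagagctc
The longer ETS site CCGGAAG was in 0 of the 8 windows, against 8.86% of all 32851 windows in the table, and the AP-1 site TGANTCA in 0 of 8, against 7.81%. TTTATG was in 1 of 8, against 11.9%, namely in the second of the Etv5 windows above, with its first base at -125 from the start. The bare core GGAA, searched after these counts were seen and contained in CCGGAAG, was in 7 of 8 windows, against 96% of all windows. The first Etv5 window held 0 cores, while the second Etv5 window and that of Dusp6 held 6 each and that of Spry1 held 1. These are matches of letters, not measured binding sites.

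The groups carried the markers of their labels. All 10 ES cell markers were lower in motor neuron cultures than in ES cells, though 8 of them exceeded 4 on the ES arrays only and so had to differ. Of the 7 tested motor neuron markers, 7 were higher in motor neuron cultures than in ES cells, and 5 were lower in Cdx2 and FGF cultures than in motor neuron cultures, while 2 others, Chat and Isl2, were too dim to be tested. Among all genes tested, 25.9% were called higher and 30.7% lower in motor neuron cultures than in ES cells. In Cdx2 and FGF cultures 8.61% were called lower than in motor neuron cultures. Cdx2 read 8.27, 8.99 and 8.59 in Cdx2 and FGF cultures and 2.17 to 2.24 on the other arrays. Most control probe sets separated the ES arrays from the rest. The 3′ probe set of Actb minus its 5′ probe set gave -0.1 to -0.01 on the 6 day 5 arrays and 1.87 to 2.3 on the ES arrays, and the 18S ribosomal RNA control read 15.3 to 15.5 on the day 5 arrays and 5.86 to 6.6 on the ES arrays. The same 3′ minus 5′ difference for Tfrc was -1.74 to -1.39 on the day 5 arrays and 5.59 to 6.86 on the ES arrays. For Gapdh it was 0.59 to 0.65 on the motor neuron arrays and 0.63 to 1.05 on the ES arrays, which overlap (exact two-sided permutation p = 0.2). The exact two-sided permutation p for Actb, Tfrc and 18S was 0.1 in each comparison with ES cells, the smallest that 3 arrays against 3 can give. Each comparison with ES cells below stands beside this difference of the ES arrays, and its part in them was not tested. The part of the Gapdh and 18S differences in the comparison of the day 5 cultures was not tested either.

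The first comparison set day 5 cultures with Cdx2 and FGF beside those without. Of the 10 genes, 8 were higher in Cdx2 and FGF cultures than in motor neuron cultures, 0 were lower, and 2, Spred2 and Dusp4, were not called. Among all genes tested, 11.2% were called higher and 8.61% lower. The median log2 difference of the 10 genes was 2.97, beside 0.04 over all genes. In the plot of levels by array, the Etv, Sprouty and Dusp6 panels show a trough in motor neuron cultures between 2 higher groups.

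**Figure D1:**
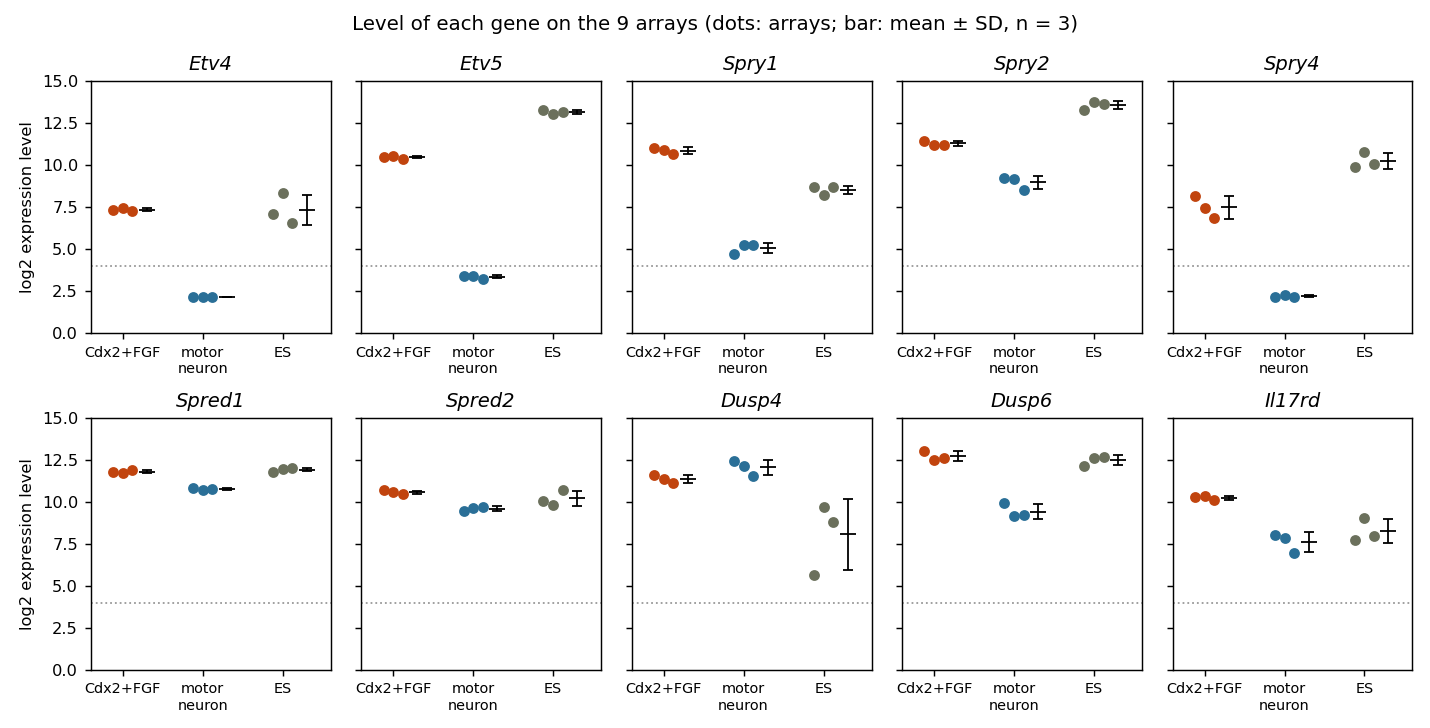
Log2 expression level (vertical axis) of the 10 genes, each by the probe set that stands for it, on the 3 Cdx2 and FGF arrays, the 3 motor neuron arrays and the 3 ES arrays; dots are arrays, black bars are mean ± SD (n = 3), and the dotted line is 4. Etv4, Etv5 and Spry4 lie under 4 on the 3 motor neuron arrays and above 6.5 on the other 6, whereas Dusp4 is lowest on the ES arrays.

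The 2 Etv genes separated the groups widely. Etv5 encodes an ETS activator that FGF signalling induces in many tissues. Etv5 read 10.48, 10.53 and 10.38 in Cdx2 and FGF cultures and 3.42, 3.42 and 3.24 in motor neuron cultures, with no overlap. The log2 difference was 7.11 (SE 0.16, adjusted p = 1.47e-08), a rise of at least 88.4-fold. Etv4 encodes the closely related factor Pea3. Etv4 read 7.32, 7.47 and 7.27 in Cdx2 and FGF cultures and 2.17 on each of the 3 motor neuron arrays, which is the floor. The log2 difference was 5.18 (SE 0.4, adjusted p = 1.17e-05), a rise of at least 10.2-fold.

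All 3 Sprouty genes rose. Sprouty proteins are membrane-associated inhibitors that receptor tyrosine kinases both induce and phosphorylate. Spry1 read 11.03, 10.88 and 10.63 in Cdx2 and FGF cultures and 4.73, 5.22 and 5.22 in motor neuron cultures. Its groups lay far apart, and it rose 55.5-fold (log2 difference 5.8, SE 0.24, adjusted p = 2.24e-07). Spry4 read 8.15, 7.45 and 6.83 in Cdx2 and FGF cultures, against 2.17, 2.26 and 2.17 in motor neuron cultures, a log2 difference of 5.28 (SE 0.36, adjusted p = 5.56e-06) and a rise of at least 11.1-fold. The difference of Spry2 was smaller. Spry2 read 11.46, 11.21 and 11.21 in Cdx2 and FGF cultures and 9.23, 9.17 and 8.52 in motor neuron cultures, a rise of 4.98-fold (log2 difference 2.32, SE 0.21, adjusted p = 3.1e-05).

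The phosphatase genes differed from each other. Dusp6 encodes a cytoplasmic phosphatase that acts on ERK. Dusp6 read 13.03, 12.49 and 12.63 in Cdx2 and FGF cultures and 9.92, 9.12 and 9.21 in motor neuron cultures, and rose 9.84-fold (log2 difference 3.3, SE 0.25, adjusted p = 9.7e-06). Dusp4 encodes a nuclear phosphatase that acts on ERK and on other MAP kinases. Dusp4 read 11.61, 11.38 and 11.14 in Cdx2 and FGF cultures and 12.44, 12.14 and 11.55 in motor neuron cultures, so the groups overlapped. Its log2 difference was -0.67, with a 95% interval of -2.55 to 1.21 (SE 0.84, adjusted p = 0.617). That interval took in the ES arrays, on which Dusp4 was scattered; with only the 6 arrays compared, the same difference had an adjusted p of 0.0758.

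Il17rd, whose product Sef blocks signalling downstream of FGF receptors, rose as well. It read 10.29, 10.33 and 10.11 in Cdx2 and FGF cultures and 8, 7.85 and 6.93 in motor neuron cultures, a rise of 6.26-fold (log2 difference 2.65, SE 0.39, adjusted p = 0.000703). The 2 Spred genes, whose products hold back activation of Raf, differed less between the cultures. Spred1 read 11.76, 11.73 and 11.87 in Cdx2 and FGF cultures and 10.83, 10.69 and 10.77 in motor neuron cultures, a rise of 2.03-fold (log2 difference 1.02, SE 0.1, adjusted p = 7.57e-05). This lay close to the limit of 1 on the size of a difference, and it was 0.96 to 0.99, without a call, after median centring, after a second quantile normalization, without s_at or x_at probe sets, without motor neuron replicate 2 and without Cdx2 and FGF replicate 3. Spred2 read 10.67, 10.57 and 10.48 in Cdx2 and FGF cultures and 9.46, 9.6 and 9.71 in motor neuron cultures. Its log2 difference of 0.99 (SE 0.22, adjusted p = 0.00748) passed the limit on p and missed the limit on size, and it was called without motor neuron replicate 3 (1.05) and without Cdx2 and FGF replicate 3 (1.03). The groups of 9 of the 10 genes did not overlap, with the Cdx2 and FGF cultures higher, and 0 did so with them lower. Of all genes tested, 35.1% and 27.6% were in these states.

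**Figure D2:**
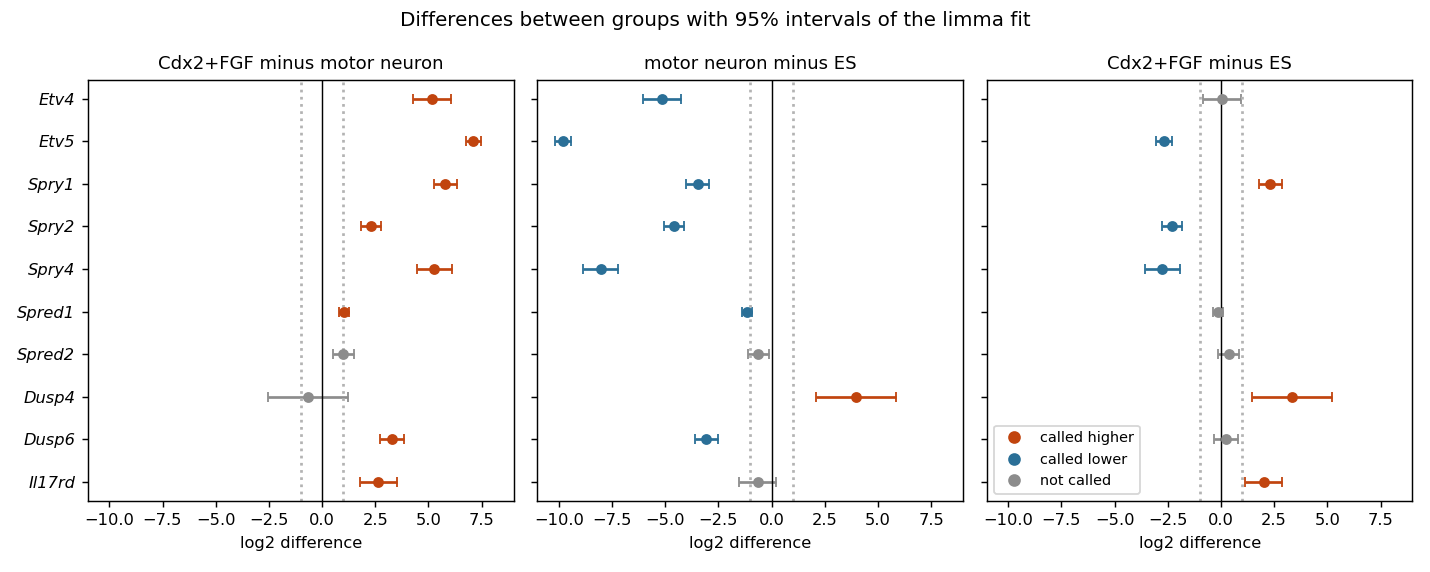
Log2 difference (horizontal axis) of each of the 10 genes in the 3 comparisons, with 95% intervals from the limma fit; red points were called higher, blue points called lower and grey points not called, and dotted lines mark -1 and 1. In the left panel 8 genes are red, with Etv5 at 7.11, and Dusp4 spans 0; in the middle panel 7 are blue and Dusp4 is red at 3.99.

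Other cell types also differed between the 2 kinds of day 5 culture, and these values stand beside the rise of the 8 genes. All 8 neuronal markers were lower in Cdx2 and FGF cultures, including Tubb3, Dcx and Map2, with log2 differences of -2.65, -7.14 and -3.02. The mean level of the 8 was 8.85 to 9.27 on the Cdx2 and FGF arrays and 12.86 to 13.39 on the motor neuron arrays. Of 7 tested mesoderm and smooth muscle markers, 6 were higher in Cdx2 and FGF cultures, of which Meox1 exceeded 4 there only and had to differ. The mean over the 10 such markers with a probe set was 7.54 to 7.6 on the Cdx2 and FGF arrays and 3.02 to 3.43 on the motor neuron arrays, and 3 of them, Tbx6, Msgn1 and Mesp1, lay under 4 on every array of both groups. Of 6 tested fibroblast markers 5 were higher, and the mean over 11 was 4.68 to 4.78 on the Cdx2 and FGF arrays and 2.38 to 2.4 on the motor neuron arrays. However, 6 of these 11 (Thy1, S100a4, Postn, Lum, Dcn and Prrx1) lay under 4 on every Cdx2 and FGF array. All 11 lay under 4 on every motor neuron array. The part of these other cells in the rise of the FGF-responsive genes was not tested.

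The second comparison asked what changed between ES cells and day 5 motor neuron cultures. Among the 10 genes, 7 were lower in motor neuron cultures than in ES cells, among 30.7% of all genes tested, and 1, Dusp4, was higher, among 25.9%. Il17rd and Spred2 were not called. The median log2 difference of the 10 genes was -3.27, beside -0.08 over all genes. Groups did not overlap for 1 gene that was higher and 8 that were lower in motor neuron cultures, against 34.5% and 39.4% of all genes. Markers of the fibroblast feeder layer moved with this comparison: 5 of 6 tested were lower in motor neuron cultures, of which Thy1 exceeded 4 on the ES arrays only, and the mean over 11 was 2.38 to 2.4 on the motor neuron arrays and 4.04 to 7.4 on the ES arrays. The part of feeder cells in the ES levels was not tested.

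Etv5 fell furthest of the 10, to 3.36 ± 0.1 in motor neuron cultures against 13.14 ± 0.11 in ES cells (SD, n = 3), where it read 13.25, 13.03 and 13.15. Etv4, which read 7.11, 8.32 and 6.54 in ES cells, fell at least 9.98-fold to the floor (log2 difference -5.15, SE 0.4, adjusted p = 2.02e-06). By these probe sets both were under 4 in motor neuron cultures, while another Etv5 probe set, 1420998_at, read 4.89, 3.33 and 2.73 there. Spry4 read 9.88, 10.75 and 10.07 in ES cells and was at least 75-fold lower in motor neuron cultures (log2 difference -8.03, SE 0.36, adjusted p = 5.68e-08). Spry2 read 13.29, 13.77 and 13.65 in ES cells and fell 24.2-fold (log2 difference -4.6, SE 0.21, adjusted p = 5.68e-08). Spry1 read 8.67, 8.23 and 8.67 in ES cells and fell 11.1-fold (log2 difference -3.47, SE 0.24, adjusted p = 8.86e-07). By the probe sets that stand for them, the 3 Sprouty genes were lower here and higher in the first comparison, but the other Spry2 probe set, 1421656_at, was called higher in motor neuron cultures than in ES cells, by 1.08 (adjusted p = 0.00981). Its 3 ES arrays all lay under 4, and with values under 4 raised to 4 this difference was 0.405.

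Dusp6 read 12.12, 12.63 and 12.68 in ES cells and was 8.33-fold lower in motor neuron cultures (log2 difference -3.06, SE 0.25, adjusted p = 2.65e-06). Dusp4 moved the other way. It read 5.66, 9.7 and 8.8 in ES cells, all below its lowest motor neuron array at 11.55, and was 15.9-fold higher in motor neuron cultures (log2 difference 3.99, SE 0.84, adjusted p = 0.00176). ES replicate 1 weighed on this size: the fold was 6.93 without it and 28.2 without ES replicate 2, and the call held in both cases. Spred1, which read 11.8, 11.93 and 11.99 in ES cells, fell 2.21-fold (log2 difference -1.14, SE 0.1, adjusted p = 6.46e-06), and after median centring its difference of -0.98 was under the limit on size. Spred2 had a log2 difference of -0.61 (adjusted p = 0.0284), which missed the limit on size, and Il17rd one of -0.64 (95% interval -1.51 to 0.22, adjusted p = 0.157), with overlapping groups.

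A total of 7 genes, Etv4, Etv5, Spry1, Spry2, Spry4, Spred1 and Dusp6, were called lower in motor neuron cultures than in ES cells and higher in Cdx2 and FGF cultures than in motor neuron cultures, a pair of calls made for 741 of 10911 genes tested (6.79%). Both calls use the same 3 motor neuron arrays, so a low reading there moves them together.

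The third comparison set Cdx2 and FGF cultures against ES cells. There 3 genes were higher in Cdx2 and FGF cultures (25.4% of all genes tested were), 3 were lower (27.2% of all genes) and 4 were not called. The median log2 difference was 0.14, beside -0.0038 over all genes. Groups did not overlap for 3 genes in each direction, against 36.3% and 37.1% of all genes. Spry1 was 5.01-fold higher in Cdx2 and FGF cultures (log2 difference 2.32, SE 0.24, adjusted p = 1.71e-05), Il17rd 4-fold higher (2, SE 0.39, adjusted p = 0.00114) and Dusp4 10-fold higher (3.32, SE 0.84, adjusted p = 0.00549). Without ES replicate 1 the Dusp4 fold was 4.36, and without ES replicate 2 it was 17.7. Il17rd read 7.73, 9.05 and 7.94 in ES cells, so its Cdx2 and FGF arrays lay above both other groups. Etv5 was 6.4-fold lower in Cdx2 and FGF cultures (log2 difference -2.68, SE 0.16, adjusted p = 5.43e-07), Spry4 6.75-fold lower (-2.75, SE 0.36, adjusted p = 9.61e-05) and Spry2 4.86-fold lower (-2.28, SE 0.21, adjusted p = 7.65e-06). Spry1 was thus above its ES level and Spry4 below its own, whereas the direction of Spry2 turned with the probe set: 1421656_at was higher by 5.21 (adjusted p = 4.85e-07). Sizes for Etv5 and Spry4 also depended on the probe set. Etv5 1450082_s_at gave -1.06 (adjusted p = 0.0123), and Etv5 1420998_at gave -0.91 and was not called (adjusted p = 0.161). Spry4 1445669_at gave -5 (adjusted p = 4.75e-07). Dusp6, Etv4, Spred1 and Spred2 were not called, with log2 differences of 0.24 (95% interval -0.31 to 0.79), 0.03 (-0.86 to 0.93), -0.12 (-0.35 to 0.12) and 0.37 (-0.12 to 0.86). Other probe sets of the Spred genes differed from this. Spred1 1423160_at, 1452911_at and 1460116_s_at were called lower (-1.19, -1.25 and -1.53), while Spred1 1423162_s_at (-0.13) and 1428777_at (0.8) were not called. Spred2 1423001_at was called higher by 5.96 (adjusted p = 1.14e-06), and Spred2 1436892_at (0.57) was not called.

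The other probe sets of these genes are needed to read the levels, since 7 of the genes have more than 1. Of the 29 probe sets, 23 were over 4 on at least 3 arrays and were fitted with all 21523 such probe sets. Between Cdx2 and FGF cultures and motor neuron cultures, 19 were called higher and 0 lower, against 10.9% and 8.57% of all probe sets. Between motor neuron cultures and ES cells, 3 were called higher and 15 lower, against 31.9% and 27.9%, and in the comparison of Cdx2 and FGF cultures with ES cells 6 were called higher and 9 lower, against 31.4% and 24.7%. The Il17rd probe set 1452471_at and the Etv4 probe set 1443381_at exceeded 4 only on the 3 arrays of 1 group, so each had to differ there.

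**Figure D3:**
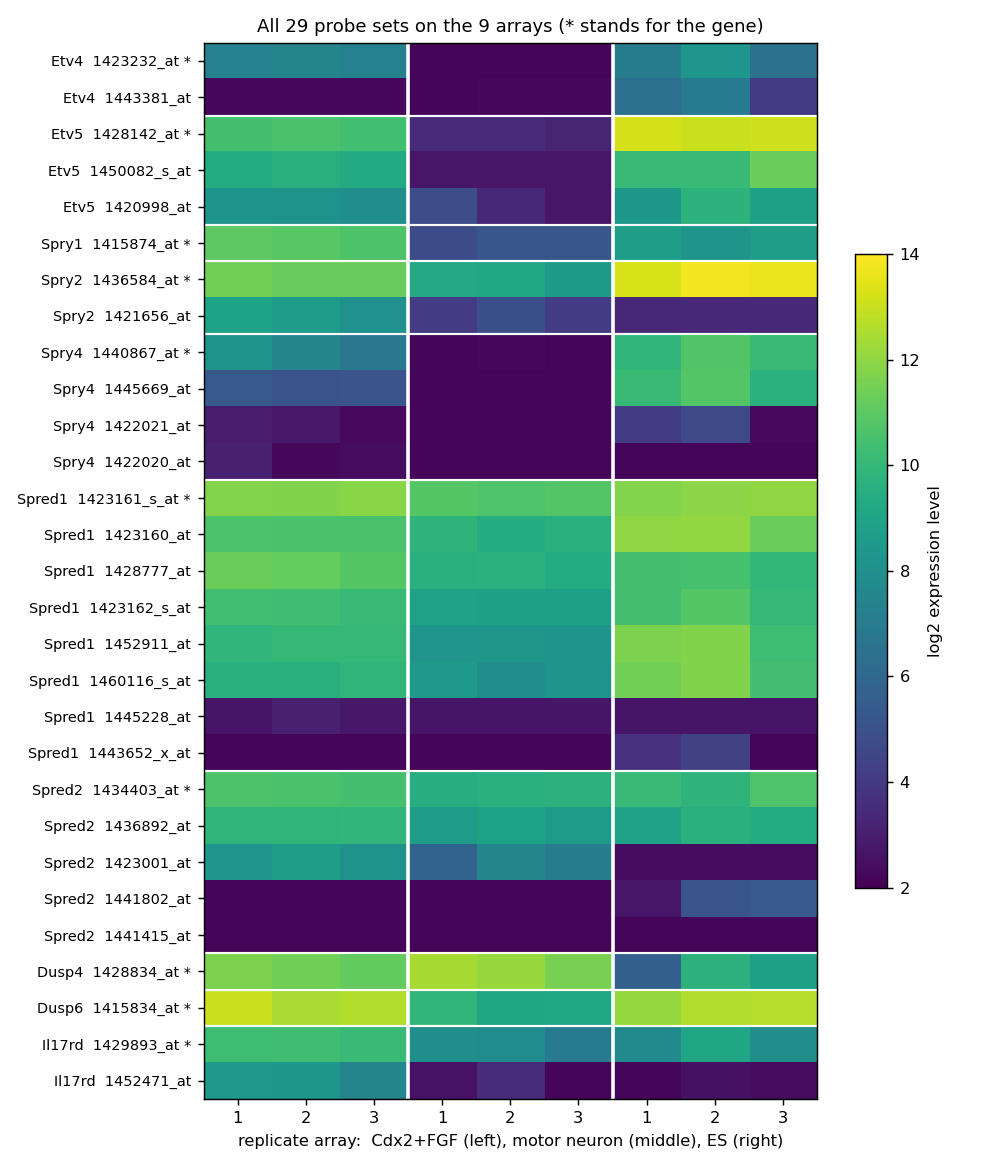
Log2 expression level (colour) of all 29 probe sets, in rows by gene with an asterisk on the probe set that stands for the gene, on the 3 Cdx2 and FGF arrays (left), the 3 motor neuron arrays (middle) and the 3 ES arrays (right). Spry2 and Spred2 each have a probe set at 3.33 or less on every ES array beside one above 9.8 on every ES array.

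No tested probe set was called lower in Cdx2 and FGF cultures than in motor neuron cultures, whereas against ES cells Spry2 had probe sets called in opposite directions. The 3 Etv5 probe sets gave log2 differences of 7.11, 6.69 and 4.46 between Cdx2 and FGF cultures and motor neuron cultures, and each was lower in motor neuron cultures than in ES cells (-9.79, -7.75 and -5.36). Of the 4 Spry4 probe sets, 2 were tested, and these gave 5.28 and 3.03 in the first comparison and -8.03 each in the second. With values under 4 raised to 4, the 3.03 of Spry4 1445669_at was 1.2. The 2 Spry2 probe sets were called opposite ways against ES cells. Spry2 1421656_at read 8.95, 8.6 and 8.06 in Cdx2 and FGF cultures, 4.15, 4.92 and 4.14 in motor neuron cultures, and on the ES arrays 3.32, 3.33 and 3.32. The mean of the 2 Spry2 probe sets gave a difference of 1.47 between the first of these groups and ES cells (adjusted p = 0.000299), where the probe set that stands for the gene gave -2.28.

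Probe sets of Spred2, Il17rd and Etv4 differed from each other too. Spred2 1423001_at read 8.3, 8.66 and 8.16 in Cdx2 and FGF cultures, 5.81, 7.5 and 7.05 in motor neuron cultures and 2.41 on each ES array, so that it was higher in motor neuron cultures than in ES cells by 4.38 on the log2 scale (adjusted p = 7.68e-06), whereas Spred2 1436892_at had a difference of -0.56 (adjusted p = 0.0356). Il17rd 1452471_at read 8.48, 8.41 and 7.48 in Cdx2 and FGF cultures, 2.58, 3.5 and 2.22 in motor neuron cultures, and on the ES arrays 2.22, 2.55 and 2.39. The Cdx2 and FGF arrays lay at least 17.4-fold above the motor neuron arrays, a value given as a description because the filter was passed through those arrays alone. Likewise without a test, Etv4 1443381_at was near the floor in both kinds of day 5 culture, at 2.28 on each Cdx2 and FGF array, and read 6.38, 6.93 and 4.06 in ES cells. The mean of both Etv4 probe sets gave -1.74 for Cdx2 and FGF cultures against ES cells (adjusted p = 0.0103), in place of 0.03. These splits stand beside the 3′ to 5′ difference of the ES arrays, whose part in them was not tested. Of the 8 Spred1 probe sets, 6 were tested, and 5 of these were called higher in Cdx2 and FGF cultures than in motor neuron cultures, with differences of 1.02 to 1.69; the sixth, Spred1 1423160_at, had a difference of 0.97 (adjusted p = 0.0084). The 6 probe sets left out were Spry4 1422020_at and 1422021_at, Spred1 1443652_x_at and 1445228_at, and Spred2 1441415_at and 1441802_at, which exceeded 4 on 0 to 2 arrays.

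The rest of the pathway was read from lists of ligands, receptors, kinases and targets. Of 12 ligand genes, 7 were too dim to be tested, Fgf2 and Fgf8 among them at 2.17 on all 9 arrays. Fgf4, the ligand of ES cells, read 2.17 on the 6 day 5 arrays and 14.05, 14.05 and 13.92 in ES cells, at least 1029-fold apart. Fgf17 likewise read 2.17 on the day 5 arrays and 8.44, 7.87 and 9.27 in ES cells. Fgf4, Fgf15 and Fgf17, the 3 ligand genes called lower than in ES cells, exceeded 4 on the ES arrays only and so had to differ there. Fgf18 ran the other way, at 6.54, 7.78 and 7.33 in Cdx2 and FGF cultures, 8.34, 8.02 and 8.24 in motor neuron cultures, and on the ES arrays 4.39, 4.39 and 4.41. It was 13.9-fold higher in motor neuron cultures than in ES cells (log2 difference 3.8, SE 0.31, adjusted p = 3.22e-06) and was not called between the 2 kinds of day 5 culture (-0.98, adjusted p = 0.0399). Between the 2 kinds of day 5 culture, 1 of the 5 tested ligand genes was lower, Fgf13, which encodes an intracellular FGF homologue (log2 difference -1.57, adjusted p = 0.000515), and 0 were higher. Among all genes tested, 8.61% were called lower there and 11.2% higher.

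Among 11 tested receptor and adaptor genes, 3 were called higher and 1 was called lower in Cdx2 and FGF cultures than in motor neuron cultures, with a median of 0.34. The shares over all genes were 11.2% and 8.61%. Fgfr1, the receptor of early spinal cord progenitors, read 11.09, 11.28 and 11.26 in Cdx2 and FGF cultures and 9.85, 10.15 and 10.33 in motor neuron cultures (log2 difference 1.1, SE 0.17, adjusted p = 0.00103). Fgfr2 went the other way, at 10.55 ± 0.11 in Cdx2 and FGF cultures and 11.88 ± 0.03 in motor neuron cultures (SD, n = 3; log2 difference -1.33, adjusted p = 0.00479). Flrt3, a membrane protein that binds FGF receptors, rose 5.68-fold (log2 difference 2.51, adjusted p = 0.000751). Against ES cells, Fgfr3 and Fgfrl1 were 38.6-fold and 28.4-fold higher in motor neuron cultures. In the chain from Ras to ERK, 11 of 17 listed genes had a probe set of their own and were tested, and 0 were called in either direction between the 2 kinds of day 5 culture by limma, with a median of -0.05. Map2k1, the gene of the ERK kinase MEK1, had a difference of 0.8 (adjusted p = 0.0061), below the limit on size. Map2k2 and Ksr1 leaned the other way, at -0.6 (adjusted p = 0.052) and -0.58 (adjusted p = 0.176).

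**Figure D4:**
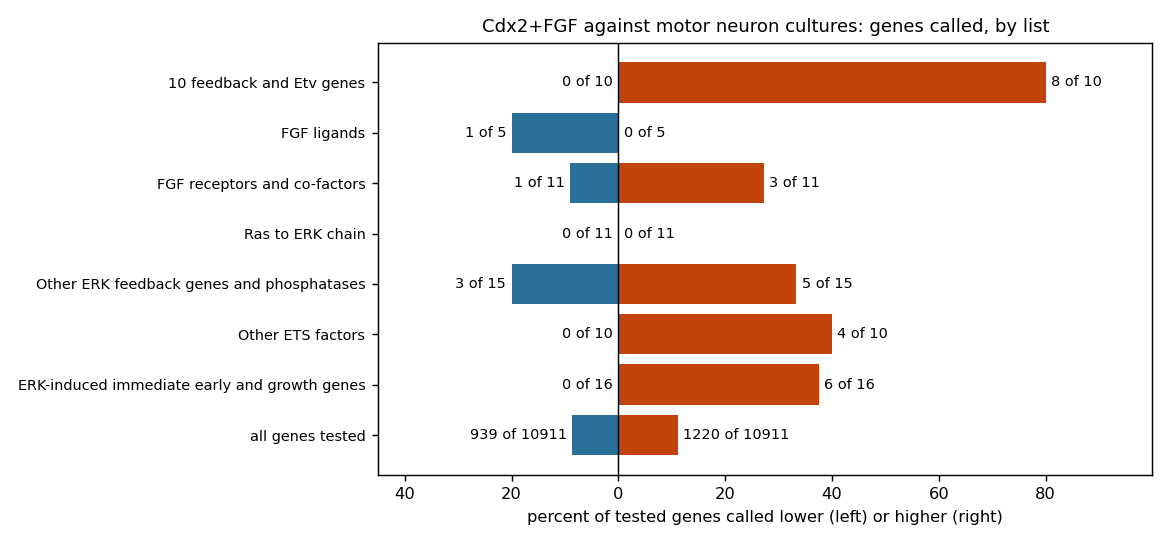
Percent of the tested genes of each list called lower (blue, left) or higher (red, right) in Cdx2 and FGF cultures than in motor neuron cultures, with the counts beside the bars. The 10 feedback and Etv genes stand at 8 of 10 higher, the Ras to ERK chain at 0 of 11 in both directions, and all genes tested at 1220 and 939 of 10911.

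Genes downstream of ERK were called in part. Of 10 other ETS factor genes tested, 4 were higher in Cdx2 and FGF cultures and 0 lower (Ets1, Ets2, Elk3 and Erf, median 0.41). In that comparison 11.2% of all genes were called higher and 8.61% lower. In motor neuron cultures 0 of the 10 were higher and 6 lower than in ES cells, against 25.9% and 30.7% of all genes. Ets1 read 9.44, 9.44 and 9.55 in Cdx2 and FGF cultures and 2.92, 2.24 and 2.65 in motor neuron cultures, and rose at least 44.5-fold (log2 difference 6.88, adjusted p = 1.28e-07). Elk3, an ETS factor controlled by ERK, rose at least 38.1-fold, and Erf, an ETS repressor that ERK exports from the nucleus, rose 3.5-fold. Of 16 tested immediate early and growth genes, Cdx2 and FGF cultures had 6 higher and 0 lower than motor neuron cultures, with a median of 0.88. The shares over all genes were 11.2% and 8.61%. Egr1 read 8.4, 7.65 and 7.92 in Cdx2 and FGF cultures, 4.09, 3.94 and 3.97 in motor neuron cultures, and on the ES arrays 11.19, 13.08 and 10.97, and was at least 15.6-fold higher in Cdx2 and FGF than in motor neuron cultures (log2 difference 3.99, adjusted p = 0.000276). Ier3 rose 16-fold and Fosl2 at least 10.8-fold. Fos was at least 101-fold lower in motor neuron cultures than in ES cells, where it read 11.39, 12.86 and 7.7.

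Other feedback genes and phosphatases were mixed. Of 15 tested, 5 were higher (Dusp3, Dusp7, Lrig3, Errfi1 and Cnksr3) and 3 lower (Dusp1, Dusp8 and Dusp9) in Cdx2 and FGF cultures than in motor neuron cultures, with a median of 0.49. The shares over all genes were 11.2% and 8.61%. Lrig3, of a family of membrane proteins that modulate growth factor receptors, rose 14.3-fold (log2 difference 3.84, adjusted p = 0.00033), while the MAP kinase phosphatase gene Dusp8 fell 6.66-fold (-2.73, adjusted p = 0.00081) and Dusp9 fell at least 4.21-fold (-2.1, adjusted p = 0.0248). Dusp9, a phosphatase gene of ES cells, read 11.53, 11.56 and 10.4 there, and was 21.8-fold lower in motor neuron cultures. Lrig1 was 43.6-fold higher in motor neuron cultures than in ES cells. Spry3 and Spred3, the remaining Sprouty and Spred genes, were too dim to be tested.

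Genes with profiles like those of the members were found by Pearson correlation over the 9 arrays, as a description, since the arrays fall into 3 groups whose means set most of each value. Predicted, clone and microRNA names were left out when the nearest genes were picked, but kept in the counts over 0.95. The nearest to Etv5 were Ahnak, Smim3 and Piezo1 (r = 0.998, 0.997 and 0.996), and 263 of 10910 genes exceeded 0.95. The nearest to Etv4 were Cd302, Entpd6 and Spsb1 (0.995, 0.991 and 0.991), and to Spry4 Cmtm6, Steap1 and Tor3a (0.995, 0.995 and 0.994). Dusp6 had Ets1, Has2 and Emp3 nearest (0.99, 0.988 and 0.982), with 54 genes over 0.95, of which Ets1 is the ETS factor described above. Dusp4 had Fez2, Nr2f2 and Mosmo nearest (0.992, 0.991 and 0.99), with 93 genes over 0.95.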

How the data were processed

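Per the labels' protocols, RNA of the 9 samples went through a NuGen Ovation amplification, and GCRMA and limma are named without versions in the submitters' processing notes. The values deposited by the authors are log2 expression levels per probe set, from 2.17 to 16.12; the range of the values shows the scale, and they were used as deposited. Of 45101 probe sets, 34958 had 1 gene symbol, 932 several and 9211 none here, and the 64 control probe sets stood for no gene. The 34754 Entrez identifiers found in the GRCm38.p6 table changed 0 symbols.

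Genes that exceeded 4 on 3 or more arrays were fitted with limma 3.58.1 in R 4.3.3 (group means, eBayes with an intensity trend, 6 residual degrees of freedom, Benjamini-Hochberg adjustment over all genes tested), and probe sets likewise. The procedure was tested on simulated data. For arrays, their number limits the precision. Named genes were the 10 members; from each pathway list up to 3 genes with the greatest difference between the day 5 cultures and up to 2 in each comparison with ES cells, ranked with values under 4 raised to 4 and called genes first; Cdx2; marker genes by count, with up to 3 examples in list order; and the 3 genes most correlated with each of 5 members. The ranking by correlation left out predicted, clone and microRNA names. Genes given without a rank (Fgf2, Fgf8 and those named in counts) were picked after their values were seen. The members and lists were chosen with earlier results of these data known. Replicate numbers were not used to pair arrays. Deviations of same-numbered arrays from their group means correlated at -0.03 to 0.08. Between the 2 kinds of day 5 culture, 5 of 6 arrays correlated best with the array of their own number. Promoter motifs were searched as exact matches on both strands.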

Additional observations from a re-analysis of the deposited data

How the results depend on the processing

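A total of 14 processing alternatives were run for each comparison, with leaving out each of the 9 arrays in turn. Counts of the 10 genes called stayed within 1.5 times of the reported ones throughout. In Cdx2 and FGF cultures against motor neuron cultures, 7 to 9 were higher and 0 lower. For motor neuron cultures against ES cells the counts were 1 and 6 to 8, and in Cdx2 and FGF cultures against ES cells, 3 to 4 were higher and 3 to 4 lower. With a replicate block the counts were 8 and 0, 1 and 7, and 3 and 3. Own-numbered arrays correlated best for 5, 4 and 1 of 6 arrays in the 3 comparisons, which does not settle whether the numbers pair the arrays.

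The sign turned for 3 genes. Etv4 in Cdx2 and FGF cultures against ES cells gave -0.44 after quantile normalization, -1.74 as the mean of its probe sets, -0.07 and -0.36 without ES replicates 1 and 3 (0.53 without ES replicate 2), and -0.03 without Cdx2 and FGF replicate 2. Spry2 in the same comparison gave 1.47, and Spred2 in motor neuron cultures against ES cells gave 0.201, as means of their probe sets. Apart from averaging of probe sets, the cause was not tested. Spred1 against ES cells was called lower in Cdx2 and FGF cultures without s_at or x_at probe sets (-1.19). With values under 4 raised, Etv4 and Spry4 rose by 3.35 and 3.47 in Cdx2 and FGF cultures against motor neuron cultures. The lowest values of these 2 differences over the processing alternatives were 2.6 and 2.31. Over all genes, fitting each probe set by itself gave 2343 higher and 1845 lower in the first comparison, 6873 and 6015 in the second, and 6758 and 5312 in the third, and dropping the limit on size gave 2016 and 1473 in the first, against 1220 and 939. The median difference over all genes was 0.09 in the second comparison and 0.1 in the third once arrays were centred on their medians, and 0.09 and 0.16 with the mean of probe sets, in place of -0.08 and -0.0038.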

Other observations

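Markers of other fates were few among the tested genes. Of 4 tested tail bud and caudal progenitor genes, out of 9 listed, 3 were higher in Cdx2 and FGF cultures than in motor neuron cultures and 0 lower (median log2 difference 2.78), among them the caudal homeobox gene Cdx4, which exceeded 4 on the Cdx2 and FGF arrays only and so had to differ (5.31, 6.06 and 5.46 there and 2.17 on each motor neuron array). The others were Nkx1-2 (log2 difference 2.83, adjusted p = 0.00987) and Cyp26a1 (2.73, adjusted p = 0.0353). Wnt3a, Sp5, Evx1, Cdx1 and Fgf8 were too dim to be tested. Of 3 tested endoderm genes, 1 was higher, Foxa2, which is also a floor plate gene (log2 difference 1.96, adjusted p = 0.000407), and 1 lower, Gata6, which exceeded 4 on the motor neuron arrays only and had to differ (3.34 on each Cdx2 and FGF array and 4.59, 4.62 and 5.13 on the motor neuron arrays, a difference of -0.78 with values under 4 raised to 4). Of 2 tested trophoblast genes, 1 was higher, the keratin gene Krt18 (2.91, adjusted p = 0.0015), and 0 lower, while Tfap2c had a difference of -1 (adjusted p = 0.056).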
